A study of Mus musculus with 6 samples.

Results

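Brain-derived neurotrophic factor (BDNF) and its receptors were examined through 4 genes, Bdnf, Ntrk2, Ntrk3 and Sort1, in brain tissue of C57 mice. The members were chosen by gene symbol, and all 4 were found among the 13170 genes of the deposited expression table. The comparison is between mice labelled as having high sexual motivation (3 libraries, the high group) and mice labelled as having low sexual motivation (3 libraries, the low group). By the series title the animals were adult males and the tissue was the medial amygdala, the design text uses MeA, and the extraction protocol uses PrL. The labels give no age in days, no scoring of sexual motivation and no word on pooling of animals, so the p-values measure the spread between these libraries, which may be technical. Poly(A) RNA was sequenced, and expression is given as FPKM, in which fragments are scaled to transcript length and to the mapped fragments of the library.

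BDNF is a secreted growth factor that is made as a precursor, cleaved to its mature form and released in part by neuronal activity. Mature BDNF acts on TrkB, the receptor tyrosine kinase encoded by Ntrk2, which signals through adaptors to the MAP kinase, PI3 kinase and phospholipase C pathways. Ntrk3 encodes TrkC, the related receptor of neurotrophin-3, and Sort1 encodes sortilin, a sorting receptor that binds precursor neurotrophins and takes part in the trafficking of BDNF. In the brain BDNF is known for its part in synaptic plasticity, and the truncated form of TrkB, which lacks the kinase, is abundant in astrocytes.

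Each gene-level FPKM value pools the transcripts of its gene, which matters most for the Trk receptors. The coding sequence around the point where a full-length and a truncated transcript part is shown for both receptors to make clear what is pooled. In the GENCODE annotation of GRCm38 the full-length transcript Ntrk2-207 encodes 821 residues and the truncated transcript Ntrk2-204 encodes 476. Their first 1394 coding bases are the same, which is 97.6% of the truncated coding sequence, and 34 coding bases belong to the truncated form. Lower case marks the last shared bases, and capitals mark the first bases that belong to each form alone (chr13:58985803-58985862 in the full-length form and chr13:58932024-58932057 in the truncated form, plus strand).
Ntrk2-207: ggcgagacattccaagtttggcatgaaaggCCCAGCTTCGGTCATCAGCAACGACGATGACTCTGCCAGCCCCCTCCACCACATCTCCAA
Ntrk2-204: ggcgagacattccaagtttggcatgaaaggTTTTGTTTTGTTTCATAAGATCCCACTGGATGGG
For Ntrk3, the full-length transcript Ntrk3-201 (825 residues) and the truncated transcript Ntrk3-202 (612 residues) share 1585 coding bases, and capitals again mark the first bases of each form alone (chr7:78260355-78260414 and chr7:78304367-78304426, minus strand).
Ntrk3-201: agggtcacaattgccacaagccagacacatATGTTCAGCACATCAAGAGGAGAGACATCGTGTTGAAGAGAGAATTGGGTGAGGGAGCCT
Ntrk3-202: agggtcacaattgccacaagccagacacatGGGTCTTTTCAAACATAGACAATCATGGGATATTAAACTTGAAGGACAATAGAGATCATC
Full-length and truncated receptors therefore cannot be told apart in the values below.

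Bdnf is transcribed from several start sites that splice to a shared coding exon, and 11 coding transcripts are annotated. RefSeq promoter windows of GRCm38.p6 matched Bdnf with 7 start sites and Ntrk2 with 1. The core of the cyclic AMP response element, CGTCA or TGACG on the reverse strand, was searched in the 250 bases before each start. It occurred in 1 of the 7 Bdnf windows, where 17.8% of all 32851 windows hold it. That window is shown because it holds the match, and the element is the one that CREB binds, whose gene Creb1 is described below. Its start is also that of the annotated transcript Bdnf-209, and other Bdnf windows likewise share a start with an annotated transcript. Capitals mark the match, which begins 35 bases before the start (chr2:109692316-109692435, plus strand).
Bdnf: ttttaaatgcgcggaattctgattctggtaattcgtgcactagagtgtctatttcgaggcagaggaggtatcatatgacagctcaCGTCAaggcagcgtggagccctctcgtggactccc
The gene-level FPKM does not show which start was used, and a match is a description of these letters only.

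FPKM sums over the listed genes lay between 247600 and 253900 in the 6 libraries, and the read depth behind them is unknown. Of the 12026 genes tested, whose FPKM averaged 1 or more, 0 had an adjusted p under 0.05 in limma (0% of those tested), and 1009 (8.39%) had an unadjusted p under 0.05. High library 2 took 11.1% of its FPKM from mitochondrial genes, the least of the 6, against 13.6% to 16.4%, and its deviation from the other libraries followed transcript GC content with a Spearman correlation of 0.451 across genes, where low library 2 had −0.499. Summed choroid plexus markers were 1349 and 4201 FPKM in low libraries 1 and 3 and 42.5 to 112 FPKM in the other 4. Medial amygdala and subpallial factors were low, with Lhx6 at 7.67 to 9.50 FPKM and Otp at 1.25 to 3.66 FPKM, and 5 of 15 listed (Sim1, Lhx5, Tbx21, Isl1 and Cyp19a1) were not analysed here. The cortical and pallial markers Slc17a7 (138 to 256 FPKM) and Tbr1 (9.74 to 14.8 FPKM) were present in every library.

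None of the 4 members passed the test between the groups. The levels are of bulk tissue, in which fewer cells of a type and less RNA per cell cannot be told apart. Bdnf, the ligand, had the lowest level of the 4. High libraries 1, 2 and 3 held 2.77, 3.50 and 2.86 FPKM, and low libraries 1, 2 and 3 held 3.10, 3.00 and 2.62 FPKM. High library 2 held the highest value and low library 3 the lowest, and the groups overlapped. The means were 3.04 ± 0.393 (SD, n = 3) against 2.91 ± 0.251 (SD, n = 3). Log2 differences are always high minus low, and those of single genes are on log2(FPKM + 1) unless another pseudocount or scale is named. For Bdnf the log2 difference was 0.05 (SE 0.0987, 95% interval −0.18 to 0.27) with an adjusted p of 0.898 in limma. Without high library 2 it was −0.03, and with a trend on the GC content and length of transcripts taken out it was 0.17 (adjusted p = 0.809 in limma).

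Ntrk2, the TrkB gene, was expressed above 91.0% of the listed genes. The high libraries held 35.8, 38.7 and 41.3 FPKM, and the low libraries held 38.1, 37.9 and 37.3 FPKM. The low libraries lay close together and all within the range of the high libraries, where library 1 was lowest and library 3 highest. The means were 38.6 ± 2.72 against 37.8 ± 0.427 (SD, n = 3 each), a coefficient of variation of 7.05% for the high group, against 1.13% for the low group. The log2 difference was 0.03 (SE 0.0667, 95% interval −0.12 to 0.18) with an adjusted p of 0.908 in limma. Without high library 3 it was −0.02.

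Ntrk3, the TrkC gene, stood at 4.82, 5.19 and 5.03 FPKM across the high libraries, against 5.45, 5.65 and 5.08 FPKM across the low libraries. The groups overlapped only through high library 2, which lay above low library 3. The means were 5.01 ± 0.187 against 5.39 ± 0.288 (SD, n = 3 each). The log2 difference was −0.09 (SE 0.0711, 95% interval −0.25 to 0.08), and the adjusted p in limma was 0.733. With each library left out in turn it stayed between −0.12 and −0.06. With the GC and length trend taken out it was −0.04.

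Sort1, the sortilin gene, had the highest level and the widest spread. The high libraries held 54.7, 63.3 and 44.0 FPKM, and the low libraries held 57.0, 53.2 and 60.4 FPKM. Both the highest and the lowest value came from the high group, in libraries 2 and 3. The means were 54.0 ± 9.64 against 56.9 ± 3.60 (SD, n = 3 each), with a log2 difference of −0.09 (SE 0.124, 95% interval −0.37 to 0.20) and an adjusted p of 0.848 in limma. Leaving out high library 2 gave −0.21, and leaving out high library 3 gave 0.05. Exact 2-sided permutation tests of the FPKM means gave p = 0.7 for Bdnf, 0.7 for Ntrk2, 0.2 for Ntrk3 and 0.8 for Sort1, where 0.1 is the smallest p that 3 against 3 can give.

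**Figure D1:**
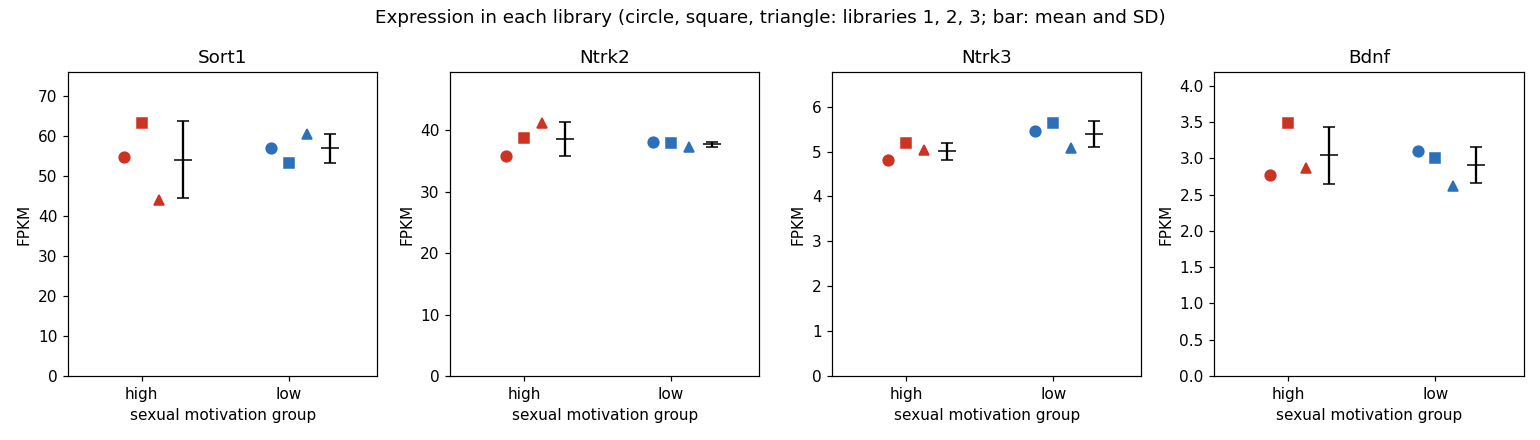
FPKM of Sort1, Ntrk2, Ntrk3 and Bdnf in each library, by group, with circles, squares and triangles for libraries 1, 2 and 3 and a bar for the mean and SD of 3 libraries. The groups overlap for every gene, and the high group holds both the highest and the lowest value of Sort1 (63.3 and 44.0 FPKM) and of Ntrk2 (41.3 and 35.8 FPKM).

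**Figure D2:**
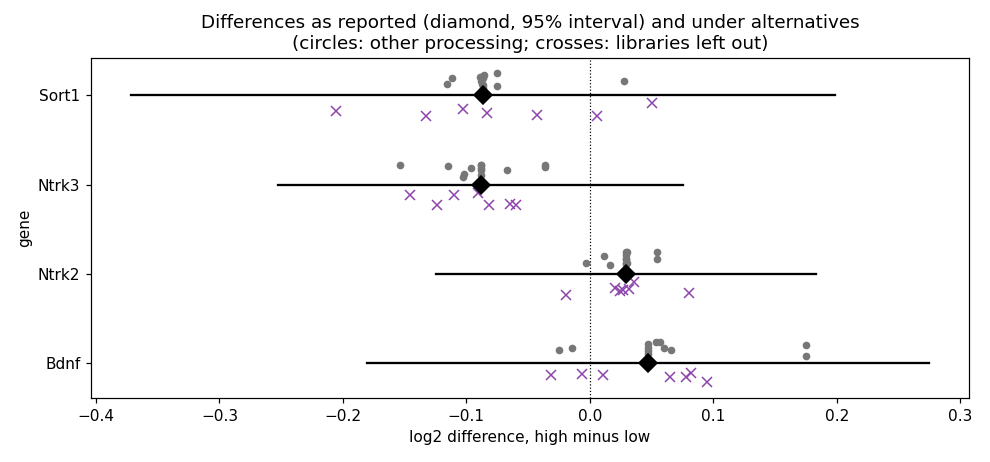
Log2 difference (high minus low) of each member as reported, a diamond with its 95% interval, beside the same difference under other processing (circles) and with libraries left out (crosses). Each point lies inside the reported interval of its gene, and the lowest adjusted p of a member under these settings is 0.492.

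The order of the levels, which FPKM gives per transcript length, was the same in all 6 libraries: Sort1, Ntrk2, Ntrk3 and then Bdnf. Neighbours in this order did not overlap, with Sort1 at 44.0 to 63.3 FPKM above Ntrk2 at 35.8 to 41.3 FPKM, and Ntrk3 at 4.82 to 5.65 FPKM above Bdnf at 2.62 to 3.50 FPKM. From the lowest to the highest library, Sort1 spanned 1.44-fold, Bdnf 1.33-fold, Ntrk3 1.17-fold and Ntrk2 1.15-fold.

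A ratio of FPKM between members within a library does not depend on how libraries are scaled. The Ntrk2 to Ntrk3 ratio was 7.44, 7.46 and 8.22 across the high libraries, against 6.99, 6.71 and 7.34 across the low libraries. Every high library lay above every low library, by a small margin between high library 1 and low library 3. The difference in log2 ratio, taken on FPKM without a pseudocount, was 0.14 (exact 2-sided permutation p = 0.1, the smallest that this design allows, and 0.3 adjusted over the 3 ratios computed). It was 0.08 with the trend on GC content and length taken out, where the exact permutation test gave p = 0.3. That value was computed on log2(FPKM + 1), so the change from 0.14 also holds a change of scale. The Bdnf to Sort1 ratio (log2 difference 0.15, exact permutation p = 0.5) and the Bdnf to Ntrk2 ratio (0.03, exact permutation p = 1) overlapped between the groups.

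The other genes of the pathway were taken from a list of 153 symbols, of which 144 were in the table and 139 were tested. Among the tested genes 60 were higher and 79 were lower in the high group, with a median log2 difference of −0.04 beside 0.00018 over all tested genes. By limma 0 passed in either direction at an adjusted p under 0.05. At an unadjusted p under 0.05 there were 3 higher genes (2.16%, beside 4.12% of all tested genes) and 13 lower genes (9.35%, beside 4.27%). The groups did not overlap in 23 listed genes (16.5%), where the share over all tested genes was 14.9%. The high group was above in 5 of them (3.60%, beside 7.33% of all tested genes) and the low group in 18 (12.9%, beside 7.61%). The balance of the list depended on high library 3, without which 69 were higher and 70 lower with a median of −0.0088. With the GC and length trend taken out, 2 higher and 10 lower genes had an unadjusted p under 0.05, beside 456 and 466 of all 11924 genes. The median was then −0.01, beside 0.0067 over those 11924 genes. Without low libraries 1 and 3 these counts were 2 and 4, where those over all 12026 genes fell to 212 and 149. Without high library 2 they were 5 and 15, beside 645 and 679 over all genes, and without high library 3 they were 7 and 13, beside 424 and 553.

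Among the ligands, Ntf3, which encodes neurotrophin-3 and is the ligand of TrkC, had the lowest unadjusted p. The high libraries held 0.654, 1.32 and 0.869 FPKM, and the low libraries held 1.92, 1.70 and 2.10 FPKM. Every high library lay below every low library. The means were 0.948 ± 0.340 against 1.91 ± 0.200 (SD, n = 3 each), with a log2 difference of −0.59 (SE 0.139) and an adjusted p of 0.505 in limma, so the difference did not pass. It stayed between −0.72 and −0.48 with each library left out in turn and was −0.60 with the trend on GC content and length removed. The pseudocount shrinks differences near 1 FPKM, and the log2 difference of Ntf3 was −0.98 with a pseudocount of 0.1 (adjusted p = 0.51 in limma) and −0.88 on values rescaled to TPM (adjusted p = 0.496 in limma).

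**Figure D3:**
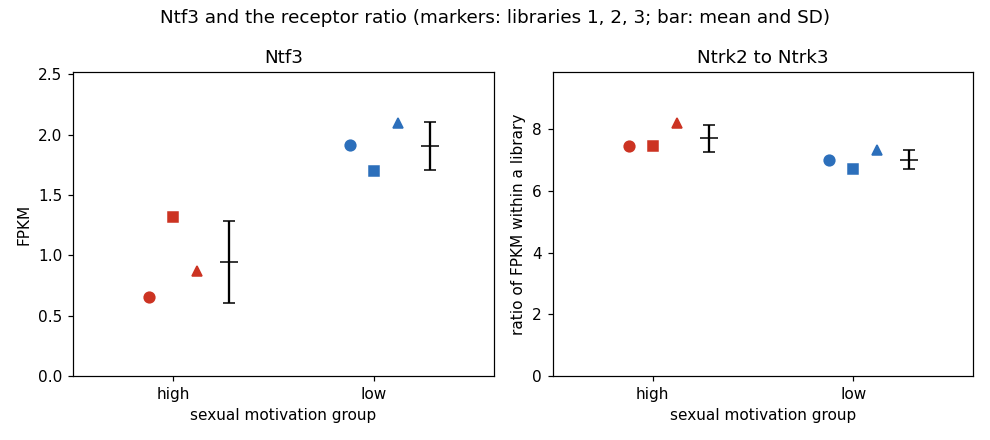
FPKM of Ntf3 and the Ntrk2 to Ntrk3 ratio of FPKM in each library, by group, with markers for libraries 1, 2 and 3 and a bar for the mean and SD. Ntf3 lies at 0.654 to 1.32 FPKM within the high group, against 1.70 to 2.10 FPKM within the low group, and the ratio at 7.44 to 8.22 and 6.71 to 7.34.

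Among the receptors, 5 of 7 tested genes were higher and 2 lower. Sorcs3, a receptor of the sortilin family, was above every low library in every high library, at 9.98, 9.56 and 9.49 FPKM against 8.61, 7.81 and 7.90 FPKM (log2 difference 0.23, SE 0.066, adjusted p = 0.553 in limma). Sorcs2, a further member of that family and a co-receptor of the p75 neurotrophin receptor, had 15.1 ± 1.22 against 13.8 ± 0.304 FPKM and overlapped. Ngfr, the gene of that p75 receptor, was below the expression filter, at 0.503 ± 0.254 against 0.594 ± 0.0937 FPKM.

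Genes of precursor processing and release had 5 of 13 tested members higher and 8 lower, with 0 called. Syt4, a vesicle protein with a part in BDNF release, had 38.4 ± 5.42 against 45.7 ± 2.92 FPKM (log2 difference −0.25, adjusted p = 0.584 in limma). Pcsk5, a proprotein convertase, had 1.63 ± 0.371 against 2.21 ± 0.323 FPKM, and Serpini1, the gene of neuroserpin, had 20.4 ± 2.92 against 22.3 ± 0.323 FPKM. The values of all 3 overlapped between the groups. With the trend on GC content and length removed the log2 difference of Syt4 was −0.12. Among receptor partners and the p75 pathway, 5 of 11 were higher, and 8 were higher without high library 3. Bex3, a partner of p75, had 237 ± 16.0 against 205 ± 11.9 FPKM without overlap (adjusted p = 0.582 in limma). Tnfrsf19 had 9.46 ± 0.104 against 10.3 ± 0.280 FPKM without overlap, and Arhgdia, an inhibitor of small GTPases, had 144 ± 5.86 against 134 ± 8.52 FPKM with overlap.

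Among the adaptors 14 of 23 tested genes were higher and 9 lower, with 0 called. At an unadjusted p under 0.05 there were 0 higher adaptors (beside 4.12% of all tested genes) and 3 lower (13.0%, beside 4.27%). Rit1, a Ras-related GTPase that was listed here, had 12.8, 12.4 and 12.1 FPKM across the high libraries, against 17.1, 15.6 and 15.4 FPKM across the low libraries, a log2 difference of −0.34 (SE 0.0656, adjusted p = 0.472 in limma). Irs2, an insulin receptor substrate, had 15.0 ± 0.870 against 18.4 ± 1.19 FPKM, and Crk, an SH2 adaptor, had 25.7 ± 0.896 against 29.4 ± 0.790 FPKM. In all 3 the groups were separate. Of the 23 adaptors 5 had separate groups (21.7%, beside 14.9% of all tested genes), with the high group above in 2 and the low group in 3. Without low library 3, 10 of the adaptors were higher and 13 lower.

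Of 31 tested kinases and small GTPases 22 were lower, 0 were called, and the median log2 difference was −0.09. With the trend on GC content and length removed 21 were lower and the median was −0.03. Nras had 6.67 ± 0.182 against 7.87 ± 0.0794 FPKM, Rap1b, a Ras-related GTPase, had 18.1 ± 2.69 against 21.5 ± 1.07 FPKM, and Rps6ka2, a ribosomal S6 kinase, had 30.0 ± 0.416 against 33.5 ± 2.24 FPKM, each with separate groups. Removing the GC and length trend moved the log2 difference of Nras from −0.21 to −0.11 and that of Rap1b from −0.24 to −0.12. Among negative regulators 7 of 18 were higher and 11 lower, and 9 were higher and 9 lower without high library 3. Dusp5, a MAP kinase phosphatase, had 2.25 ± 0.421 against 3.37 ± 0.213 FPKM with separate groups (log2 difference −0.43, adjusted p = 0.505 in limma), while Rasa1, a GTPase-activating protein of Ras, had 5.84 ± 1.009 against 6.79 ± 0.612 FPKM with overlap.

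Regulators of Bdnf transcription were lower in 11 of 15 tested members, with 0 called. Without high library 3 the majority turned, with 8 higher, 7 lower and a median log2 difference of 0.004. Mef2c, a neuronal transcription factor, had 11.4, 13.0 and 10.4 FPKM against 17.4, 17.7 and 17.1 FPKM, and its adjusted p of 0.363 in limma equalled the smallest over all tested genes. Its log2 difference was −0.56, and −0.42 with the trend on GC content and length removed (adjusted p = 0.578 in limma). Creb1, the gene of CREB, had 2.45 ± 0.215 against 3.01 ± 0.136 FPKM with separate groups (log2 difference −0.22, SE 0.0843, adjusted p = 0.582 in limma), and Mef2a had 6.84 ± 1.07 against 7.84 ± 0.237 FPKM with overlap. With the trend on GC content and length removed the log2 difference of Creb1 was −0.0646 (adjusted p = 0.887 in limma) and that of Mef2a −0.0719. Of genes that BDNF induces, 10 of 18 were higher and 8 lower, with 0 called. This balance was not stable, with 7 higher and 11 lower once the GC and length trend was removed, and 6 higher and 12 lower without high library 1, without low library 1 or without low libraries 1 and 3 together. Vgf, a neuropeptide precursor, had 107, 123 and 106 FPKM across the high libraries, against 93.3, 82.9 and 95.7 FPKM across the low libraries (log2 difference 0.30, SE 0.085, adjusted p = 0.548 in limma). Homer1, a postsynaptic scaffold, had 4.78 ± 0.529 against 6.23 ± 0.723 FPKM with separate groups. Its log2 difference was −0.32 (adjusted p = 0.553 in limma) and became −0.10 with the GC and length trend removed (adjusted p = 0.886 in limma). Egr3, an immediate early transcription factor, had 19.3 ± 2.58 against 22.7 ± 2.17 FPKM with overlap.

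**Figure D4:**
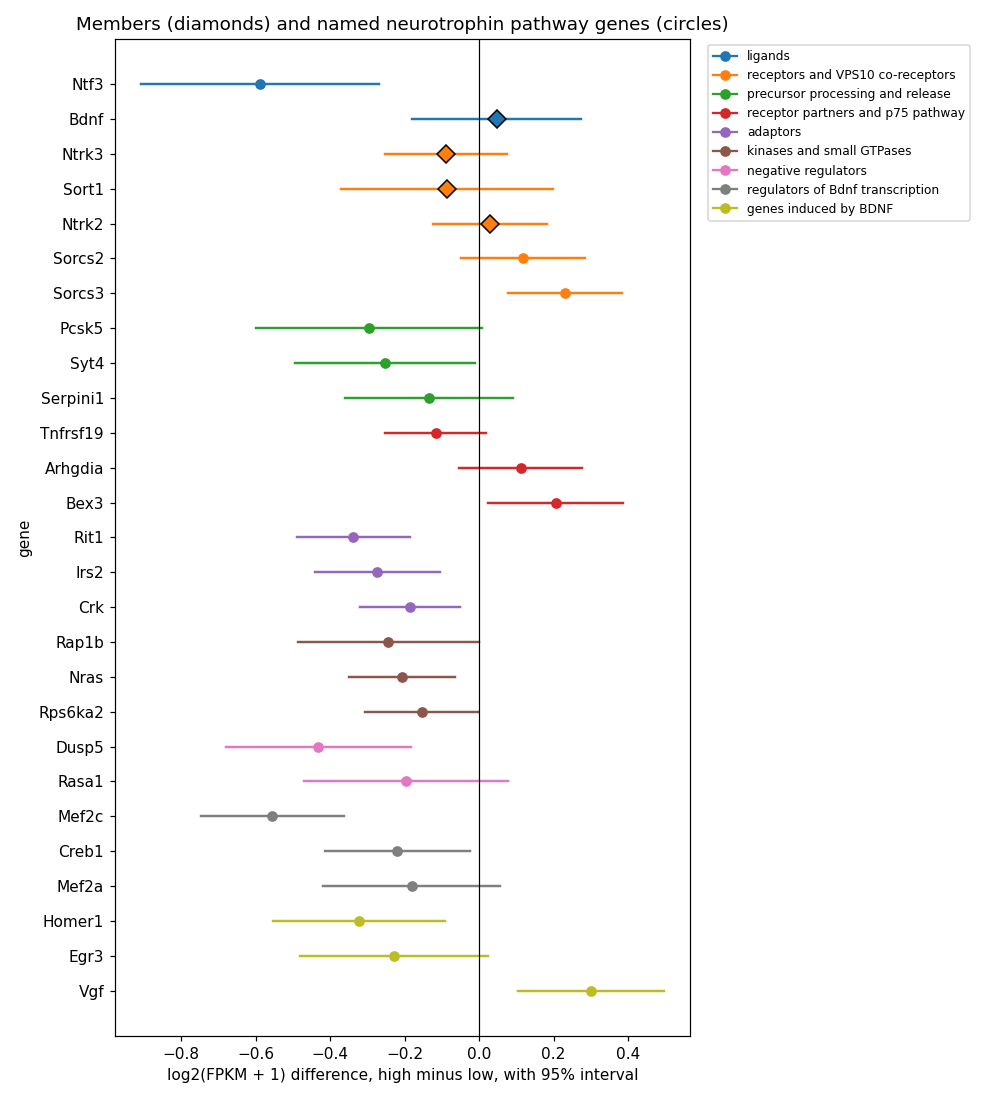
Log2(FPKM + 1) difference, high minus low, with its 95% interval (not adjusted for the number of genes) for the 4 members (diamonds) and the named genes of the pathway (circles), coloured by role. Ntf3 lies at −0.59, Mef2c at −0.56 and Vgf at 0.30, and the intervals of the members cross 0.

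Some members followed cell type markers from library to library. Of 48 pairs of a member and a marker list, 2 placed all 6 libraries in the same order. In one, Sort1 followed the summed FPKM of 14 excitatory neuron markers, which were 1206, 1517 and 1107 across the high libraries, against 1248, 1189 and 1353 across the low libraries, with Camk2a and Nrgn the most abundant. In the other, Bdnf followed the sum of 8 oligodendrocyte precursor markers, which spanned only 89.1 to 96.5 FPKM. Their part in the levels of Sort1 and Bdnf was not tested. Ntrk2 shared its lowest and its highest library with the sum of 14 astrocyte markers, at 812 FPKM in high library 1 and 1034 FPKM in high library 3, and 3 of 6 libraries were at the same rank. It also shared its highest library with the inhibitory neuron markers and the medial amygdala and subpallial factors, and its lowest with the ependymal and motile cilia markers. Ntrk3 and the ependymal and motile cilia markers likewise had 3 of 6 libraries at the same rank. The part of astrocytes in the level of Ntrk2 was not tested. The astrocyte sums ranged from 812 to 1034 FPKM within the high group, against 820 to 896 FPKM within the low group, and the excitatory neuron sums from 1107 to 1517 and 1189 to 1353 FPKM.

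**Figure D5:**
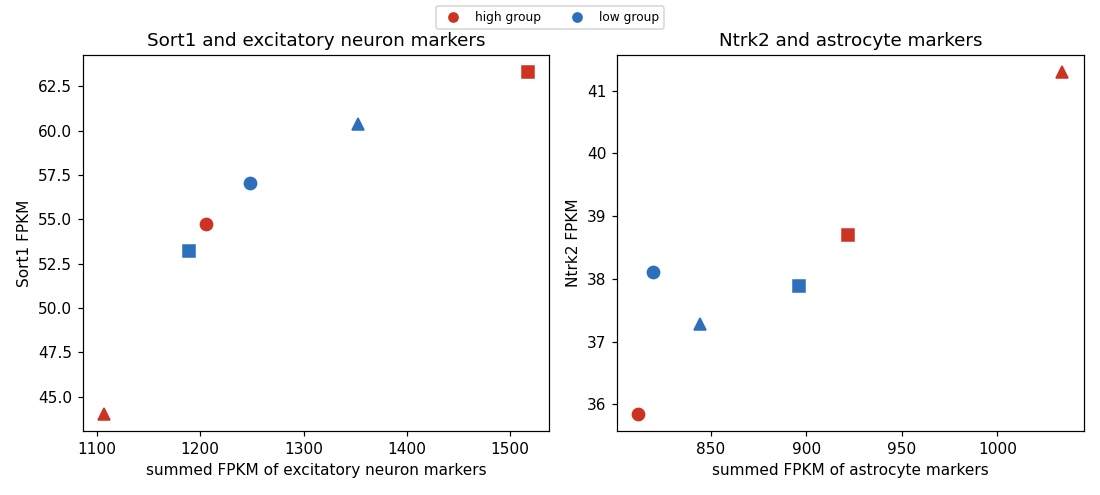
Left, FPKM of Sort1 against the summed FPKM of 14 excitatory neuron markers. Right, FPKM of Ntrk2 against the summed FPKM of 14 astrocyte markers, with 1 point per library, red for the high group and blue for the low group, the marker shape for the library number and axes that do not start at 0. Sort1 and its marker sum are lowest in high library 3 (44.0 and 1107 FPKM) and highest in high library 2 (63.3 and 1517 FPKM).

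Lower in the high group in every tested gene were markers of the choroid plexus (13 of 13) and of ependymal cells and motile cilia (7 of 7). In these lists 0 were called. Excitatory neuron markers were lower in 9 of 13 tested genes and oligodendrocyte precursor markers in 5 of 7. The choroid plexus sums were 42.5 to 112 FPKM within the high group, against 83.0 to 4201 FPKM within the low group, and Ttr was the most abundant. With the choroid plexus score as a covariate the log2 differences were −0.01 for Bdnf, 0.02 for Ntrk2, −0.15 for Ntrk3, 0.03 for Sort1 and −0.47 for Ntf3. Without low libraries 1 and 3, a fit in which the lone low library is taken to vary as the high ones do, they were 0.01 for Bdnf, 0.02 for Ntrk2, −0.15 for Ntrk3, 0.01 for Sort1 and −0.49 for Ntf3. Summed markers of oligodendrocytes were 386 to 459 FPKM within the high group, against 354 to 392 FPKM within the low group. Those of leptomeninges were 208 to 1114 and 64.2 to 353 FPKM, most of it from Ptgds (196 to 1063 and 55.8 to 332 FPKM). All 7 tested leptomeningeal markers were higher in the high group, and 0 had separate groups. Their median log2 difference was 1.26, where Dcn had 0.15 and Col1a1 0.10. Inhibitory neuron markers summed to 655 to 712 FPKM within the high group, against 615 to 620 FPKM within the low group. Most of these sums came from Sst (409 to 425 and 345 to 381 FPKM). Of the 12 inhibitory neuron markers 9 were higher and 3 lower. Only 1, Sst, had separate groups, beside 14.9% of all tested genes.

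Likeness in pattern was measured as Pearson's r of log2(FPKM + 1) over the 6 libraries, among all tested genes, with the 3 highest named for each member. Over so few libraries that share the same differences in composition, r is high for many genes by selection. Sort1 was most like Kcnip3, a calcium-binding repressor that is itself on the pathway list (r = 0.997), Osbp2 (0.994) and Slc8a2 (0.993), with 77 genes above 0.95. Kcnip3 had 32.4, 35.9 and 27.5 FPKM across the high libraries, against 33.2, 31.8 and 35.4 FPKM across the low libraries. Bdnf was most like Rtcb (0.991), Taf13 (0.988) and Banp (0.988), Ntrk2 was most like Nsun7 (0.996), Zfp108 (0.988) and Trim17 (0.987), and Ntrk3 was most like Wdr5b (0.985), Tmem169 (0.983) and Mbd4 (0.980). Among the members themselves r lay between −0.58, for Ntrk2 with Sort1, and 0.41, for Bdnf with Ntrk3.

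The 4 genes lie on different chromosomes in GRCm38. Bdnf spans 109674700 to 109727007 on chromosome 2, Ntrk2 58806569 to 59133970 on chromosome 13, Ntrk3 78175959 to 78738012 on chromosome 7 and Sort1 108284082 to 108361511 on chromosome 3. Each is overlapped by other annotated genes, 11 in all and some on the opposite strand, none of which is a row of the table. The libraries were made to keep strand, but no source used here says that counting used strand, so antisense reads may be included.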

How the data were processed

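FPKM values of 6 libraries, 3 per group, were used as deposited by the authors in 1 table of 13170 genes. The submitters' processing notes name HISAT2, StringTie and fastp and the build GRCm38, without versions or settings. The authors' deposited table also holds a log2 fold change and a p-value per gene, whose test is not stated in the labels and which were not used for any result here. FPKM carry no counts, so no count model was fitted and no counting interval can be given.

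After a filter that kept the 12026 genes averaging 1 FPKM or more, log2(FPKM + 1) was fitted by limma 3.58.1 (R 4.3.3) with a variance trend, 2-sided, with Benjamini-Hochberg adjustment over all tested genes at 0.05. Where a gene lay under the filter, values are given without a test. Single values and ratios were tested by exact permutation. The fit was tested on simulated data. GC content and length come from the longest coding transcript in GENCODE M21 (99.2% of tested genes), and their trend was removed with splines of 5 degrees of freedom. The other steps used Python 3.11.15 with scipy 1.17.1, pandas 2.3.3, matplotlib 3.10.9 and numpy 2.4.6. Promoter windows are from RefSeq (GRCm38.p6).

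The members, the gene lists and the rule for named genes were chosen with earlier results of these data known. Genes named are the 4 members, in each role of the pathway list the 3 with the smallest unadjusted p and all with an unadjusted p under 0.05, the 3 genes most like each member, and the most abundant markers. A few of these genes are left out of the text. Slc17a7, Tbr1, Lhx6, Otp, Ngfr, Dcn, Col1a1 and the symbols not analysed were named after their values were seen. Alternatives were libraries left out, a block for the replicate number, other scalings, filters and pseudocounts, the trend on GC content and length, array weights, a fit without a variance trend and the choroid plexus score as a covariate.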

Additional observations from a re-analysis of the deposited data

How the results depend on the processing

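Across 20 alternatives, 0 genes passed over all tested genes and 0 in the pathway list, and no adjusted p of a member fell below 0.492. The smallest adjusted p of a listed gene was 0.0766 (Mef2c without high library 2). The differences of the members are near 0 and changed sign in 9 of 79 refits. For any gene, refits that altered only the filter, the variance trend or the replicate block return the same difference and could not change its sign. Adding the block to the fit with the GC and length trend removed likewise returns the difference of that fit. The counts of refits therefore overstate how stable the signs are. With array weights Bdnf was −0.0249 and Ntrk2 −0.00322. With the choroid plexus score as a covariate Bdnf was −0.0148 and Sort1 0.0274, and without low libraries 1 and 3 together Sort1 was 0.00613. With each library left out in turn the range was −0.0316 to 0.0948 for Bdnf, −0.019 to 0.0803 for Ntrk2, −0.124 to −0.0597 for Ntrk3 and −0.206 to 0.0502 for Sort1. Leaving out high library 2 gave −0.0316 for Bdnf, leaving out low library 3 gave it −0.00659, and Ntrk2 was −0.019 and Sort1 0.0502 without high library 3. The log2 ratio of Bdnf to Ntrk2 ranged from −0.0689 (without high library 2) to 0.122, with −0.0315 without low library 3, that of Ntrk2 to Ntrk3 from 0.0885 to 0.169 and that of Bdnf to Sort1 from 0.0335 to 0.231. Of 456 refits of 23 other named genes, 2 changed sign, those of Serpini1 with the trend on GC content and length removed, both with and without the replicate block (0.0738 in both). The cause was not tested. The filter at a mean of 5 FPKM leaves Bdnf out. The replicate number as a block cannot move the differences in this balanced design and alters only their errors. With it limma called 0 genes (adjusted p = 0.921 for Bdnf, 0.939 for Ntrk2, 0.825 for Ntrk3 and 0.894 for Sort1). Deviations of same-numbered libraries from their group means correlated at −0.094, −0.206 and −0.156, and no library had its highest correlation with its own number. With 3 libraries per group these values cannot decide whether same-numbered libraries were handled together. The GC trend lies along the comparison (Spearman correlation 0.401 of the differences with GC content over 11924 genes, which are not independent). Low read numbers cannot be separated from low expression for Ntf3 and Bdnf, since FPKM hold no depth.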
